A study of Mus musculus with 5 samples.

Results

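A small set of predicted or Rik-named loci carried NFATC2 (NFAT1) ChIP-seq peaks again and again in regenerating mouse myofibers. These were Gm10801 (ENSMUSG00000075015), Gm5614 (ENSMUSG00000066771), Gm9075 (ENSMUSG00000092168), 2210408I21Rik (ENSMUSG00000071252), 9230019H11Rik (ENSMUSG00000071434), and 2010315B03Rik (ENSMUSG00000074829). All peaks that the authors annotated to these 6 genes were taken, which gave 27 of the 726 peaks in the deposited lists. The genes were chosen by a measured value, the presence of peaks in 2 or more lists, so their recurrence is a description and was not tested. Of 185 Gm- or Rik-named symbols with a peak, 171 had peaks in 1 list only, and 14 had peaks in 2 or more. The 6 genes are part of those 14. The highest score of a gene was at most 86.3 among the 171 symbols just outside the threshold. Among the 6 genes, those just inside it, with peaks in 2 lists, were 9230019H11Rik, with a highest score of 765, and 2010315B03Rik, with 291. Of the 8 other symbols with peaks in 2 lists, Gm10800 reached 360, and the remaining 7 reached 53.2 to 67.9. All 6 genes thus scored above those 7 and above the 171, and their scores are given below as a description.

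Myofibers were dissected from the tibialis anterior muscle at 14 days after injury. All mice carried the Pax7-Cre(ERT2) driver, which acts in muscle stem cells, together with the mito-Dendra2 reporter, and Dendra2+ fibers were collected. Tamoxifen was given at 75 mg/kg on each of 5 days, and 50 μL of 1.2% BaCl2 was injected 2 days later. The groups were wild-type and Mfn2-/- (floxed Mfn2 deleted by the same driver, here mfn2-/-), each with 2 libraries, and an input library from wild-type fibers was not analysed here. The labels do not say whether the 2 libraries of a genotype came from separate animals, so the spread between them may be technical. The mice were adults of unstated age.

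NFATC2 is a transcription factor that calcium signaling sends to the nucleus through the phosphatase calcineurin, and in muscle it is known for its part in the growth of new fibers by fusion. It recognizes a short DNA core, GGAAA. Mouse chromosomes carry their centromere at the end with the lowest coordinates, next to long arrays of satellite repeats that the reference assembly holds only in part. Reads from repeated DNA can align to several places, and peak lists made with many antibodies are known to contain such places. Whether the 27 peaks lie in repeats was not tested, since neither the sequence under the peaks nor a repeat annotation was used here.

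RefSeq (GRCm38.p6, the same assembly as the mm10 build of the lists) gave promoter windows for 2 of the 6 genes, and these are shown because both genes had peaks only in the mfn2-/- lists. Each window runs from 250 bases before to 50 after a transcription start. Capitals mark the NFAT core on either strand, as GGAAA or as its reverse complement TTTCC, and no matches overlapped. The window of 9230019H11Rik lies at chr10:3119591-3119890 on the plus strand, and that of 2010315B03Rik at chr9:124312645-124312944 on the minus strand.
9230019H11Rik promoter: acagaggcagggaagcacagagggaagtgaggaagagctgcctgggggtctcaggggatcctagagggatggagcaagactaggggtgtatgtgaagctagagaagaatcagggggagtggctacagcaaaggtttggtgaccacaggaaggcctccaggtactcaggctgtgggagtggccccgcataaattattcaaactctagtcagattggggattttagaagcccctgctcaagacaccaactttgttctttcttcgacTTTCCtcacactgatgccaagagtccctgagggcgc
2010315B03Rik promoter: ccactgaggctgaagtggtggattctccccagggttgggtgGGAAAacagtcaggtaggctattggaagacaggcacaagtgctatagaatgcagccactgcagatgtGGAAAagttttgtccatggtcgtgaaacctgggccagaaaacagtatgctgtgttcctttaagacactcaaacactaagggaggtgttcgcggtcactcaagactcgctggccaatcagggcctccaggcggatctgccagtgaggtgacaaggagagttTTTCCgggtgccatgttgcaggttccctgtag
The core occurred 1 time in the window of 9230019H11Rik and 3 times in that of 2010315B03Rik. It occurred at least 1 time in 61.3% of the 32851 promoter windows of that length, so its presence sets neither gene apart. Neither window held a peak. The nearest 9230019H11Rik peak ended 2483 bp before the window in mfn2-/- replicate 1 and 2304 bp before it in mfn2-/- replicate 2, and the 2010315B03Rik peaks ended 54.5 kb away.

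The list of wild-type replicate 1 held 226 peaks, that of wild-type replicate 2 held 212, that of mfn2-/- replicate 1 held 127, and that of mfn2-/- replicate 2 held 161. Each peak has a score, the −log10 p-value from the peak caller times 10, with list medians from 54.1 to 57.0 and a lowest value of 50.01. Scores rise with sequencing depth, which is unknown because the lists hold no read counts, and so ranks within a list were used for tests. Between 17 and 31 peak numbers were missing from each list, so a locus without a listed peak may have been left out after calling. No peak was annotated to Mfn2 or Nfatc2, and peak lists cannot check the deletion or the tissue by marker expression.

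The 6 genes had 4 peaks in wild-type replicate 1, 6 in wild-type replicate 2, 9 in mfn2-/- replicate 1, and 8 in mfn2-/- replicate 2. The higher mfn2-/- counts rest on 9230019H11Rik and 2010315B03Rik, which entered the set through the mfn2-/- lists alone and gave 4 and 5 of these peaks. The other 4 genes, with peaks in both genotypes, had 4 and 6 peaks for wild-type against 5 and 3 for mfn2-/-. With all 6 genes the mean was 8.5 ± 0.707 (SD, n = 2) for mfn2-/- against 5 ± 1.41 (SD, n = 2) for wild-type. With the 4 genes, a choice made after seeing the data, the mfn2-/- mean was 4 ± 1.41 (SD, n = 2), so that the direction turned. The counts over all 6 genes therefore describe which loci were chosen and do not compare the genotypes. As a share of the list, these peaks made up 1.77% in wild-type replicate 1 (95% Wilson interval 0.690% to 4.46%) and 2.83% in wild-type replicate 2 (1.30% to 6.04%). They made up 7.09% in mfn2-/- replicate 1 (3.77% to 12.9%) and 4.97% in mfn2-/- replicate 2 (2.54% to 9.50%). The intervals cover counting error only and treat peaks as independent, although neighboring peaks of 1 cluster were counted separately. Those of both wild-type lists overlap those of both mfn2-/- lists, which does not compare the genotypes, since the genes were chosen from these lists. Over the 4 genes with peaks in both genotypes, the share was 3.94% in mfn2-/- replicate 1 and 1.86% in mfn2-/- replicate 2, which overlaps the wild-type values. Of the length covered by all peaks of a list, the 6 genes took 2.36% (replicate 1) and 3.87% (replicate 2) for wild-type, and 13.9% (replicate 1) and 9.34% (replicate 2) for mfn2-/-. Of the mfn2-/- length, 8.16 kb and 8.27 kb belonged to the pair of genes chosen through those lists, and the other 4 genes took 5.20% and 2.20%. All 6 genes were present in mfn2-/- replicate 1, and 4 of them in each of the other lists. When peaks of a library within 1 kb were merged first, the difference in mean count fell from 3.5 to 1, since the 9230019H11Rik cluster then counts as 1 peak.

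**Figure D1:**
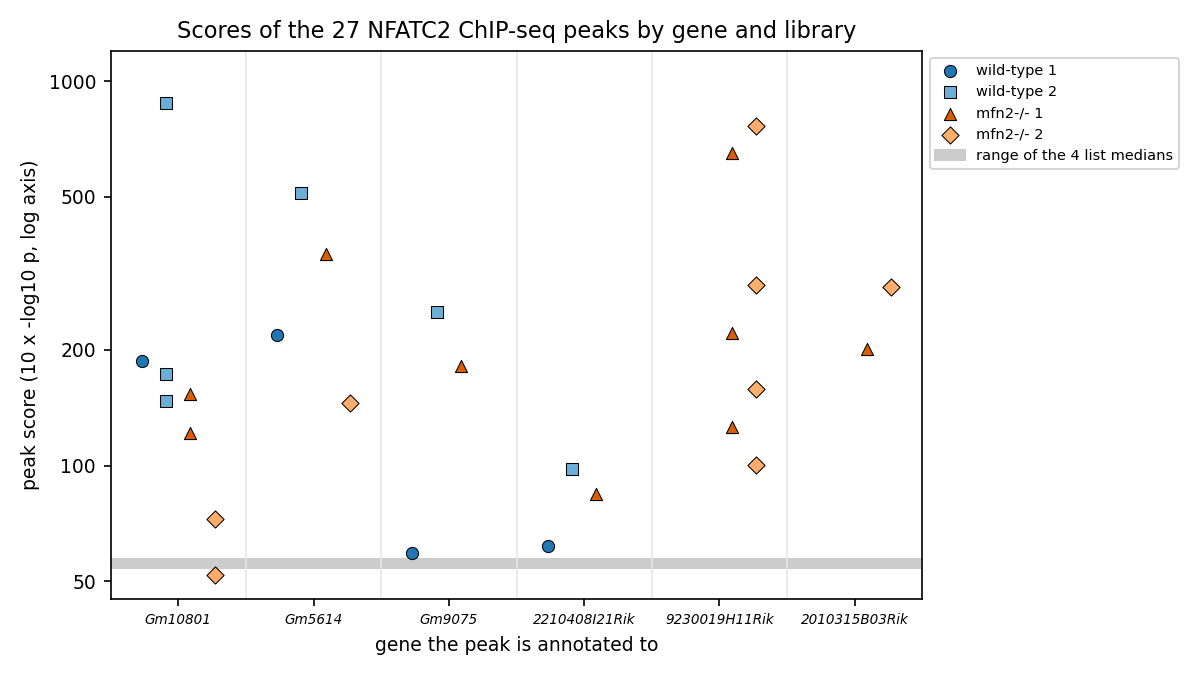
Score of each of the 27 peaks (vertical, log axis, 10 times −log10 of the p-value) by gene (horizontal) and library (marker and color), with the grey band at the range of the list medians, 54.1 to 57.0. Gm10801, Gm5614, Gm9075, and 2210408I21Rik have peaks in wild-type and mfn2-/- lists, whereas 9230019H11Rik and 2010315B03Rik have peaks in both mfn2-/- lists only.

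Joined where they overlapped by at least 1 bp, the 27 peaks formed 10 regions, all of which had a peak in 2 or more lists. Over all peaks, 31 of 680 regions did so (4.56%), and this comparison rests on the property by which the genes were picked. Of the 10 regions, 2 had a peak in all 4 lists, 2 in 3 lists, and 6 in 2 lists. The class with a peak in both mfn2-/- lists and in neither wild-type list held 4 of the 10 (1.47% of all regions), with 3 at 9230019H11Rik and 1 at 2010315B03Rik. The opposite class, with a peak in both wild-type lists only, held 0 of the 10 (0.588% of all regions). Most of the 680 regions had a peak in 1 list and could not fall in either class, so these shares of all regions carry the rule of choice too. Of the 21 recurrent regions that belong to none of the 6 genes, 6 (28.6%) fell in the mfn2-/- class and 4 (19.0%) in the wild-type class. Without mfn2-/- replicate 1 or without mfn2-/- replicate 2, 5 of the regions still had a peak in 2 lists. The 5 lost were in each case the 4 regions of 9230019H11Rik and 2010315B03Rik and 1 region of Gm10801.

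9230019H11Rik is a protein-coding gene in RefSeq, on chromosome 10 from 3119841 to 3129546, and its peaks lay in a row before its start. In mfn2-/- replicate 1, 3 peaks scored 126, 650 and 221 from left to right. In mfn2-/- replicate 2, 4 peaks scored 158, 765, 101 and 295. The row was the same in both libraries except that the broad middle peak of replicate 1 was split in replicate 2, with a gap of 72 bp. No wild-type list had a peak at this locus.
The leftmost region spanned 3109455 to 3110568, and the rightmost, classed by the authors as promoter at 2 to 3 kb, spanned 3115894 to 3117287. The middle region, from 3111249 to 3115405, was 4.16 kb long and held the widest of the 27 peaks, at 3965 bp in replicate 1 and 3452 bp in replicate 2. Its peaks ranked 3 of 127 and 3 of 161 in their lists, below only the pair of peaks annotated to Hif1a, the hypoxia-inducible transcription factor of the study. Together the peaks covered 6.25 kb of a 7.65 kb span in replicate 1 (81.7%) and 6.37 kb of a 7.69 kb span in replicate 2 (82.8%). The rightmost peak ended 2733 bp and 2554 bp before the RefSeq gene start, with the RefSeq pseudogene Gm3318 in between. The score was higher in replicate 2 than in replicate 1 in all 3 regions, by 1.26, 1.18 and 1.34 times.

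2010315B03Rik, also protein-coding in RefSeq, lies near the far end of chromosome 9, from 124291802 to 124312719. Its region, from 124256214 to 124258141, had 1 peak in each mfn2-/- list and none in the wild-type lists. The peak scored 200.5 in replicate 1, at rank 7 of 127, and 291 in replicate 2, at rank 6 of 161. Its edges differed by 20 bp at the start and 36 bp at the end between these libraries, and it was 1908 bp and 1892 bp wide. The authors classed it as distal intergenic. It lay 33.7 kb from the RefSeq gene of that name, and the nearer RefSeq gene was Gm39469, at 9.74 kb and 9.78 kb.

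Gm10801 is a predicted gene that the RefSeq table does not list, and the nearest RefSeq gene to its peaks, the long noncoding RNA Gm33780, was 37.0 kb to 39.5 kb away. Its peaks on chromosome 2 formed 3 regions. The left region, from 98661748 to 98663138, had a peak in wild-type replicate 2, where it was the highest of the list at 876, and in mfn2-/- replicate 1, at 153. Neither wild-type replicate 1 nor mfn2-/- replicate 2 had a peak there.
The middle region, from 98663357 to 98664508, was the one found in every list. Its score was 187 in wild-type replicate 1, 147 in wild-type replicate 2, 122 in mfn2-/- replicate 1, and 72.7 in mfn2-/- replicate 2. Both wild-type scores lay above both mfn2-/- scores, without correction for depth. The right region, from 98664693 to 98665562, scored 173 in wild-type replicate 2 and 52.0 in mfn2-/- replicate 2, where it ranked 115 of 161 and was the only one of the 27 peaks below the median of its list.
Wild-type replicate 2 and mfn2-/- replicate 1, the libraries with the left region, also had a peak annotated to the neighboring Gm10800 to the right, at 360 and 90.9. With it, the cluster covered 4.43 kb of 5.40 kb in wild-type replicate 2, and 3.91 kb of 5.97 kb in mfn2-/- replicate 1. Wild-type replicate 1 had a single peak of 897 bp in the same stretch. The extent of the cluster thus differed between replicates of each genotype.

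**Figure D2:**
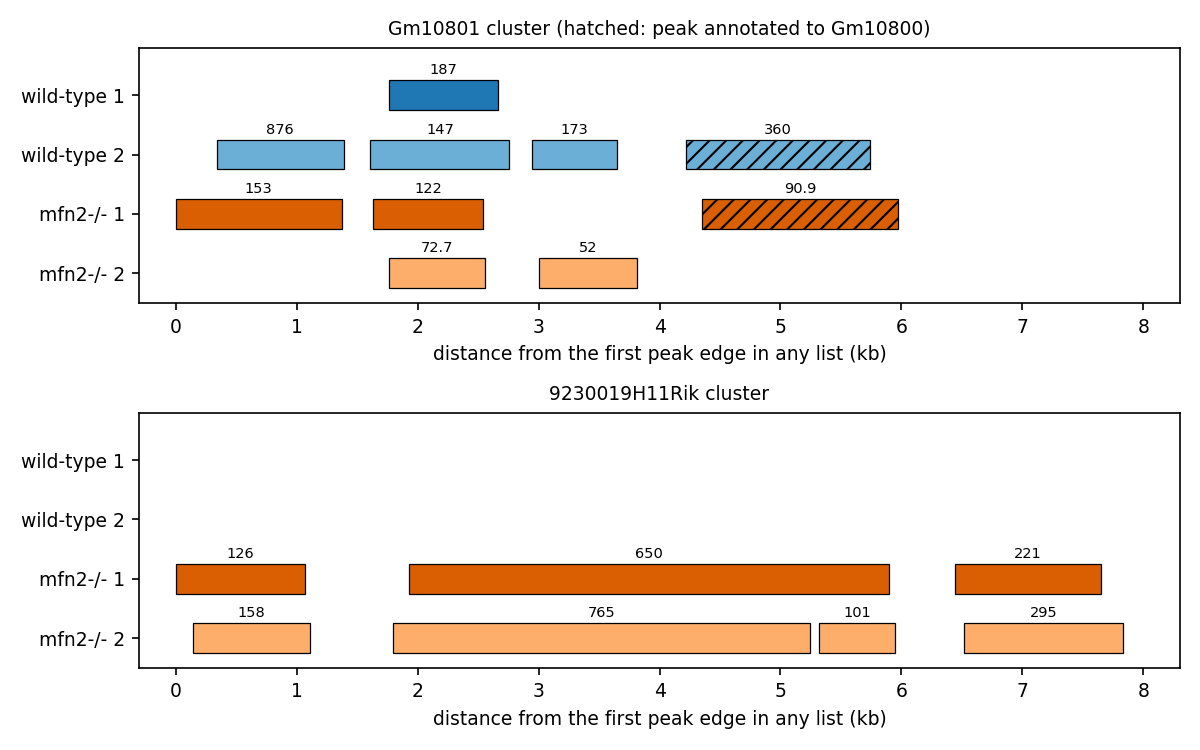
Peaks of the Gm10801 cluster (top) and the 9230019H11Rik cluster (bottom) in each library, drawn to scale as bars along the distance in kb from the first peak edge in any list, with the score above each bar and hatching for peaks annotated to Gm10800. The Gm10801 bars differ between replicates of each genotype, whereas the 9230019H11Rik bars repeat in both mfn2-/- libraries and are absent from both wild-type rows.

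Gm5614 is a pseudogene of 404 bp in RefSeq, on chromosome 9 from 35281467 to 35281870. The region annotated to it spanned 35304753 to 35305960 and had 1 peak in each of the 4 lists. Its score was 218 in wild-type replicate 1, 511 in wild-type replicate 2, 356 in mfn2-/- replicate 1, and 146 in mfn2-/- replicate 2. The genotypes overlapped, and replicates of 1 genotype differed by 2.34 times in wild-type and 2.44 times in mfn2-/- libraries. The peaks lay 22.9 kb to 23.2 kb from the pseudogene, and the authors classed them as distal intergenic. In the RefSeq table they fall inside a different gene, the long noncoding RNA Gm33838, from 35285514 to 35307723.

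Gm9075, a predicted gene that the RefSeq table does not list, had 1 peak in each of 3 lists, on chromosome 12 from 3109371 to 3110494. It scored 59.1 in wild-type replicate 1, 251 in wild-type replicate 2, and 181 in mfn2-/- replicate 1. The wild-type replicates differed by 4.25 times, with the mfn2-/- value between them. The nearest RefSeq gene was the pseudogene Gm48310, at least 54.2 kb away.
2210408I21Rik, a protein-coding gene of 478 kb in RefSeq on chromosome 13, had 1 peak in each of the same 3 lists, in the last intron of its annotated transcript, from 77438378 to 77439484. It scored 61.6 in wild-type replicate 1, 97.8 in wild-type replicate 2, and 84.4 in mfn2-/- replicate 1. It was the lowest of the 6 genes by highest score, and no score of it reached 100. Neither gene had a peak in mfn2-/- replicate 2.

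The libraries fell in 1 order at Gm5614, Gm9075, and 2210408I21Rik. Wild-type replicate 2 was highest, then mfn2-/- replicate 1, then wild-type replicate 1, and mfn2-/- replicate 2 was lowest or had no peak. Gm10801 was mixed. Its left region and the neighboring Gm10800 peak followed the order, with wild-type replicate 2 above mfn2-/- replicate 1 and no peak in the other libraries. Its middle region did not, since wild-type replicate 1 lay above wild-type replicate 2. Nor did its right region, where mfn2-/- replicate 2 had a peak and mfn2-/- replicate 1 had none. Nor was the order particular to these genes, since the region annotated to Chl1, a neural cell adhesion gene that had a peak in all 4 lists and was named after its values were seen, scored 195, 144, 95.6 and 85.5 in that order of libraries. The remaining regions with a peak in all 4 lists, both annotated to Hif1a, ran another way, with both mfn2-/- libraries above both wild-type libraries. At 9230019H11Rik and 2010315B03Rik the order of the mfn2-/- libraries was the opposite, with replicate 2 above replicate 1 in all 4 regions. The list medians were 54.1 (replicate 1) and 54.2 (replicate 2) for wild-type and 57.0 (replicate 1) and 54.7 (replicate 2) for mfn2-/-. The wild-type medians were thus almost equal. The mfn2-/- medians ran the same way as Gm5614 and the opposite way to 9230019H11Rik and 2010315B03Rik. Depth is unknown, and its part in these orders was not tested.

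Gm10801 and Gm5614 had peaks in all 4 lists and could be compared between genotypes by rank and width, as 4 tests. The highest Gm10801 peak ranked 4 of 226 (replicate 1) and 1 of 212 (replicate 2) for wild-type, and 10 of 127 (replicate 1) and 17 of 161 (replicate 2) for mfn2-/-. As a percentile of the list, where 100 is the highest peak, this was 99.3 ± 0.943 (SD, n = 2) for wild-type against 91.4 ± 2.02 (SD, n = 2) for mfn2-/-, with p = 0.33 by a two-sided exact permutation test and a Benjamini-Hochberg adjusted p of 0.44. The highest Gm10801 peak was in the left region in wild-type replicate 2 and mfn2-/- replicate 1, and in the middle region in the other libraries. With only the region found in every list, the Gm10801 difference was -7.20 percentiles. Gm5614 ranked 3 in both wild-type lists, then 5 (replicate 1) and 10 (replicate 2) for mfn2-/-. Its percentile was 99.1 ± 0.0417 (SD, n = 2) for wild-type against 95.6 ± 1.73 (SD, n = 2) for mfn2-/- (two-sided exact permutation p = 0.33, adjusted p = 0.44). With 2 libraries a group, no p below 0.33 can occur, so none of these tests could pass 0.05. Both genes ranked higher in the wild-type lists in 2 of 2 libraries each, and the shorter mfn2-/- lists lower the percentile of a given rank. The Gm5614 difference of -3.48 percentiles was -2.26 without mfn2-/- replicate 2.
The width of the highest Gm5614 peak was 660 bp and 794 bp for wild-type against 983 bp and 946 bp for mfn2-/-, without overlap (two-sided exact permutation p = 0.33, adjusted p = 0.44). For Gm10801 it was 897 bp and 1049 bp for wild-type against 1375 bp and 799 bp for mfn2-/-, which overlap (two-sided exact permutation p = 1, adjusted p = 1). The mean Gm10801 difference of 114 bp turned to -174 without mfn2-/- replicate 1, and to -167.5 when only the region found in every list was used.

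The 27 peaks were high and broad against the rest of their lists. The genes were chosen for peaks in 2 or more lists, whereas most regions had a peak in 1 list, so this is a description. High scores were not particular to these genes, since the regions annotated to Hif1a, also found in all 4 lists, scored 237 to 1494. The median score of the 27 peaks was 173, against 54.5 for the 699 other peaks, and 21 of 27 scored 100 or more, against 5.65% of all 726 peaks. All but 1 lay above the median of their own list. Of the 27, 18 were among the top 10 of a list, against 40 of all 726 peaks, and peaks of 1 cluster count separately here. By list, this was 2 of 10 in wild-type replicate 1, 5 in wild-type replicate 2, 6 in mfn2-/- replicate 1, and 5 in mfn2-/- replicate 2. The median percentile of the peaks of these genes within each list was 91.3 and 97.4 in wild-type, and 93.7 and 94.7 in mfn2-/- libraries. The ranges of the genotypes overlapped.
Their median width was 946 bp, against 580 bp for the other peaks, and 11 of 27 were at least 1000 bp wide, against 6.89% of all peaks. Within lists, their median width exceeded that of the other peaks by 289.5 bp (replicate 1) and 236 bp (replicate 2) for wild-type, and by 491.5 bp (replicate 1) and 346 bp (replicate 2) for mfn2-/-. For the 4 genes with peaks in both genotypes, the mfn2-/- excess was 334.5 bp (replicate 1) and 193 bp (replicate 2), which overlaps wild-type. Of the 27, 26 were wider than the median of the other peaks of their list, the exception being 2210408I21Rik in wild-type replicate 2, at 533 bp. Width and score come from the same reads, and the broadest of the other peaks, at 4189 bp, exceeded all 27.

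**Figure D3:**
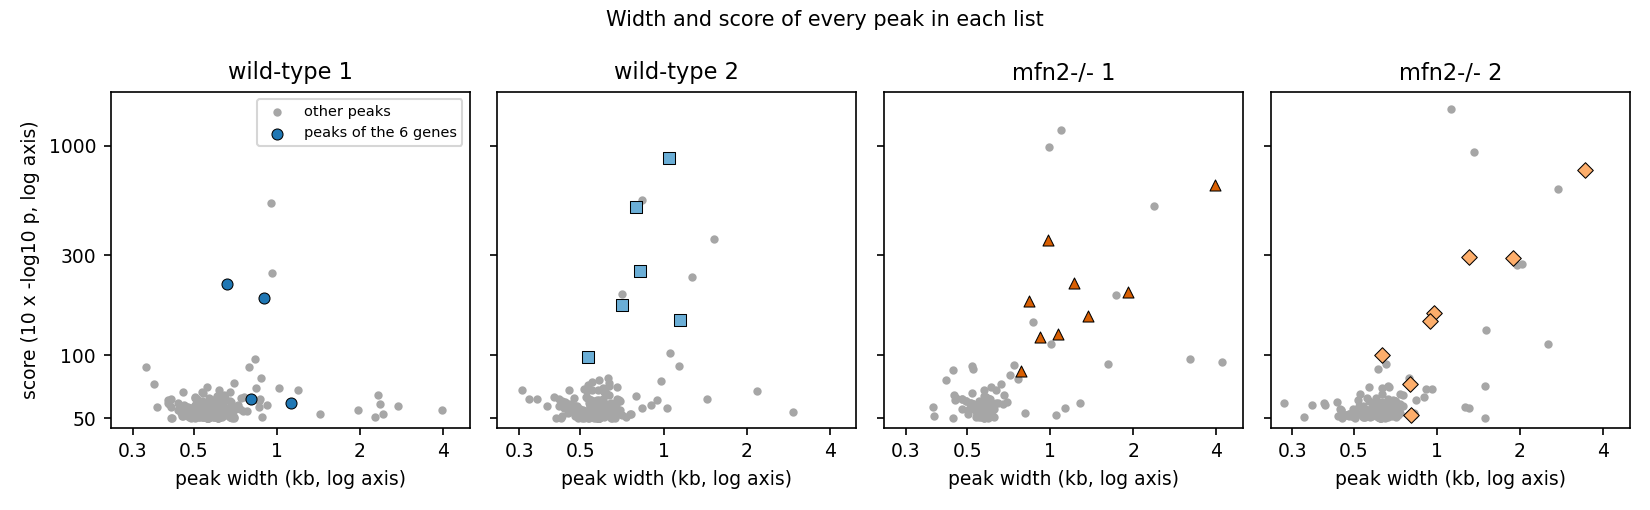
Width in kb (horizontal, log axis) against score (vertical, log axis, 10 times −log10 of the p-value) for every peak, 1 panel per library, with the peaks of the 6 genes colored and all others grey. Most other peaks lie low and narrow near their medians of 54.5 and 580 bp, and most colored peaks lie up and to the right of them. The exceptions are the weakest ones in wild-type replicate 1 and mfn2-/- replicate 2, which lie low, and the 533 bp peak in wild-type replicate 2, which lies to the left of the median width.

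Neighboring peaks were common at these genes but came from a pair of loci. Of the 27 peaks, 14 had another peak of the same list within 10 kb, against 4.68% of all 726 peaks. All 14 belonged to Gm10801 or 9230019H11Rik, and the peaks of the other 4 genes stood alone. By list, 0 of 4 peaks had such a neighbor in wild-type replicate 1, 3 of 6 in wild-type replicate 2, 5 of 9 in mfn2-/- replicate 1, and 6 of 8 in mfn2-/- replicate 2. Within the clusters, the gap from the end of a peak to the start of the next peak of the same gene was 72 bp to 862 bp.

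Of the 27 peaks, 12 lay within 1 Mb of the outermost RefSeq gene of their chromosome, against 2.89% of all peaks, and 9 of the 699 other peaks did so. These 12 were all the peaks of 3 genes. The 7 peaks of 9230019H11Rik lay 5.46 kb to 12.0 kb inward from the outer edge of the first gene of chromosome 10, and the 3 of Gm9075 lay 69.5 kb to 69.7 kb inward from that of chromosome 12. On both chromosomes they were the first peaks in any list, and the next peaks of other genes started at 5846736 and 4406525. The 2 peaks of 2010315B03Rik lay 219 kb before the end of the last gene of chromosome 9, past every peak of another gene there. Gm10801, Gm5614, and 2210408I21Rik lay inside their chromosomes, at least 32.3 Mb from the outermost gene. Both genes with peaks in all 4 lists were internal, those with peaks in 3 lists were 1 internal and 1 terminal gene, and those with peaks in both mfn2-/- lists alone were terminal, at opposite ends of their chromosomes. Peaks of 1 locus in several lists share their position, so libraries are not replicates of it, and no test was made.

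**Figure D4:**
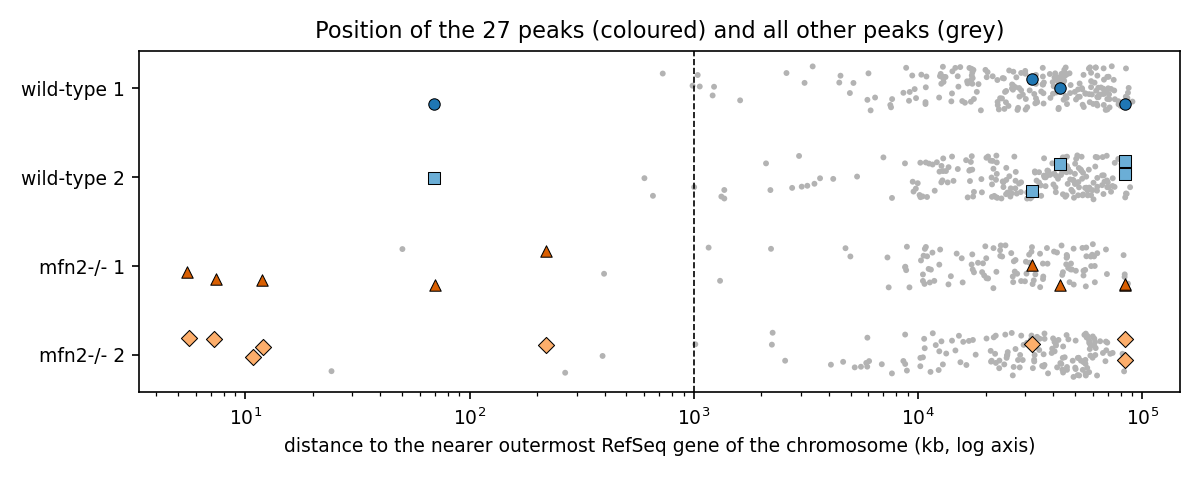
Distance in kb (horizontal, log axis) from each peak to the nearer outermost RefSeq gene of its chromosome, 1 row per library, with the peaks of the 6 genes colored, all others grey, and a dashed line at 1 Mb. Of the colored peaks, 12 lie left of the line and the others lie at 32.3 Mb or more.

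By the authors' classes, 14 of the 27 peaks were distal intergenic (51.9%, against 50.2% of the other peaks), 10 were promoter (37.0%, against 12.3%), and 3 were intronic (11.1%, against 31.5%). Of the 10 promoter peaks, 8 were those of Gm10801, a gene that RefSeq does not list, and 2 were the rightmost 9230019H11Rik peaks.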

How the data were processed

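NFATC2 ChIP-seq libraries of 14-day regenerating myofibers (2 wild-type, 2 mfn2-/-) were read as the authors' deposited peak lists. Per the labels, reads were processed with BWA 0.7.5, MACS, and deepTools 3.5.0 on build mm10. The MACS version and the control library are not given in the sources used here. Peaks were called per library, and the authors gave each peak a score, its −log10 p-value times 10, with no scaling for depth. Coordinates are those of the lists, and width is end minus start plus 1.

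The 6 genes and the measures were chosen with earlier results of these data known. Genes named are these 6, and others only where they neighbor, lie nearest to, or outrank their peaks, except Mfn2 and Nfatc2 as checks and Chl1, which was chosen after its values were seen. Genotype and replicate came from the labels. Regions were joined by at least 1 bp, neighbors counted within 10 kb, and chromosome ends set by the outermost RefSeq gene (GRCm38.p6), leaving out 394 of 49997 entries that start below 3 Mb on chromosomes other than Y, where the assembly holds no sequence. Group values were compared by exact permutation over 6 splits. Functions were tested on simulated data. Python 3.11.15, numpy 2.4.6, pandas 2.3.3, scipy 1.17.1, and matplotlib 3.10.9 were used.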

Additional observations from a re-analysis of the deposited data

How the results depend on the processing

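The differences in count and share rest on 9230019H11Rik and 2010315B03Rik, chosen through the mfn2-/- lists alone. With only the 4 genes with peaks in both genotypes, added after seeing the data, the count difference reversed to -1 peak, the difference in share was 0.600 percentage points, 16.7% of the peaks lay near an end, and 6 regions were in 2 or more lists. Merging peaks of a library within 1 kb also moved many values. The mfn2-/- minus wild-type difference became 1 peak and 1.89 percentage points of the list, the excess width 688 bp, the share with a neighbor 5.56%, and the regions in 2 or more lists 6, since clusters then count as 1 peak. The Gm10801 width difference then became -848 bp, because the Gm10800 peak, which is not one of the 6 genes, joins the cluster in wild-type replicate 2 (gap 564 bp) but not in mfn2-/- replicate 1 (gap 1806 bp). Counting peaks within 1 kb as shared also gave 6 regions. After peaks below the median score were dropped, the difference in share was 5.01 percentage points and the mean of the median percentiles 88.7, since low peaks leave the lists. The percentile differences were then -14.1 for Gm10801 and -6.12 for Gm5614, in place of -7.90 and -3.48. With only peaks overlapping in all 4 lists, the Gm10801 width difference was -167.5 bp, and without single libraries it ran from -174 to 402 bp. Leaving out single libraries gave 5 to 10 regions in 2 or more lists, differences of 2.5 to 4.5 peaks, and Gm5614 percentile differences of -4.71 to -2.26. With reference entries below 3 Mb kept, chosen after seeing the data, 33.3% of the peaks lay near an end in place of 44.4%, since the Gm9075 peaks then drop out. Unknown depth limits all comparisons of scores and counts.

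In a fit with replicate as block, each mean difference is by construction that of the unblocked fit, at 3.5 peaks and 3.73 percentage points, -7.90 and -3.48 percentiles for Gm10801 and Gm5614, and 114 and 237.5 bp in width. The exact sign-flip p was 0.5 at least, the smallest that 2 pairs allow. Libraries share only a number. Deviations of same-numbered libraries had a correlation of -0.75 over the 5 regions in all lists, and crossed pairing, added after seeing the data, likewise made 0 calls of 4.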

Other observations

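The leftmost 9230019H11Rik region on chromosome 10 and the Gm9075 region on chromosome 12 lay at almost the same coordinate of their chromosomes. Their starts differed by 84 bp and their ends by 74 bp, and both began about 109 kb past the 3 Mb mark. Among the 31 regions with a peak in 2 or more lists, this was the only pair on different chromosomes with overlapping coordinates, and among all 680 regions there were 3 such pairs. The pair did not recur in the same lists. Both had a peak in mfn2-/- replicate 1, Gm9075 alone had one in the wild-type lists, and 9230019H11Rik alone had one in mfn2-/- replicate 2. This was noticed after the values were seen and was not tested.

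The gene named for a peak depended on the annotation used. Of the 6 genes, 4 were matched in the RefSeq table. The 3 peaks of 2210408I21Rik were the only ones of the 27 that lay inside the RefSeq gene of the same name.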
